A study of Arabidopsis thaliana with 27 samples.

Results

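The loci described here are the annotated genes of the mitochondrial genome, taken as every locus of the count table whose identifier starts with ATMG. There were 114 of them among 27587 loci, each with 1 transcript. The seeds were whole seeds of Arabidopsis thaliana, accession Col-0 (the common laboratory wild type), with embryos at the heart, bent or mature stage. From flowering on, control plants had days of 24 °C and nights of 22 °C, a mean of 23 °C. Mild stress was 26 °C days with nights of 24 °C, a mean of 25 °C, and severe stress was 28 °C days with nights of 26 °C, a mean of 27 °C. With 3 libraries for every stage at every temperature there were 9 groups and 27 libraries, made from messenger-enriched RNA and holding 17227267 to 19445842 counts each. All plants were wild type, and a whole seed mixes embryo, endosperm and seed coat. In such bulk samples, fewer cells or mitochondria and less mitochondrial RNA per cell cannot be told apart. The levels given are those of RNA captured by messenger enrichment. How completely mitochondrial RNA was captured, and whether this differed between temperatures, was not tested.

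The plant mitochondrial genome encodes some subunits of the respiratory chain and of the ATP synthase, several proteins that attach haem to cytochrome c, some ribosomal proteins, ribosomal and transfer RNAs, and many open reading frames without a known product. Most mitochondrial proteins, the RNA polymerases and the RNA processing factors among them, are encoded in the nucleus. The respiratory chain moves electrons from NADH through complex I, complex III and complex IV to oxygen, and the ATP synthase uses the resulting proton gradient. Developing and germinating seeds rely on it for ATP.

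A name was given to 32 of the 114 loci. The coding length of 15 matched exactly 1 mitochondrial gene of the RefSeq annotation (assembly TAIR10.1, length of at least 500 bases), 16 carried a protein name in the RefSeq notes, and 1 was named in the study's own table. The named loci comprised 5 ATP synthase subunits, 6 complex I subunits, 4 subunits of complexes III and IV, 4 proteins of cytochrome c maturation, 5 ribosomal proteins and 8 loci noted only as similar to a named protein. The other 82 loci are called by their identifier.

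Mitochondrial loci took few counts, between 380 and 1891 in a library and 23506 over all 27 libraries. Of the 114 loci, 10 had no count in any library, which allows at most 3 counts per library for each, and 53 had at most 3 counts in every library. The filter of at least 10 counts in at least 3 libraries was passed by 35 loci, and 28 of these passed also without the 27 °C libraries. The other 7 (ATMG00290, ATMG00560, ATMG00630, ATMG00650, ATMG00730, ATMG01200 and ATMG01320) passed only through the 27 °C libraries, so counts over the 35 favour loci that were high at 27 °C. The sum over all 114 loci has no such filter and is given first.

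Some libraries stood apart before any comparison. Bent replicate 3 at 23 °C had a size factor of 0.829, against 1.08 and 1.04 in the other bent libraries at 23 °C. It also held 184 of the 187 counts of ATMG00030, a locus with no name here that had at most 1 count in every other library (chosen after its values were seen). Heart replicate 1 at 23 °C had 3230 CPM (counts at the loci scaled to a common library total) from 3 seed storage protein genes of the embryo, against 43.0 and 21.2 in the other heart libraries at 23 °C. Values without these libraries are given for the summed levels, the counts of calls and the calls they decide.

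The summed level of all mitochondrial loci was higher at 27 °C than at 23 °C in every stage. In heart seeds it was 29.1, 27.8 and 26.8 CPM in the libraries at 23 °C, 36.8, 39.0 and 33.9 at 25 °C and 62.7, 76.9 and 74.4 at 27 °C. In bent seeds it was 24.0, 27.7 and 20.8 CPM at 23 °C, 31.1, 42.5 and 33.3 at 25 °C and 74.7, 70.6 and 77.6 at 27 °C. In mature seeds it was 20.6, 27.9 and 32.2 CPM at 23 °C, 36.1, 41.7 and 28.6 at 25 °C and 104, 88.5 and 103 at 27 °C. Every 27 °C library lay above every 25 °C and 23 °C library, across the stages as well as within them. The 25 °C libraries lay above the 23 °C libraries of the same stage in heart and bent seeds and overlapped them in mature seeds.

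The ratio of the mean at 27 °C to the mean at 23 °C was 2.56 for heart, 3.07 for bent and 3.66 for mature seeds. The ratio of 25 °C to 23 °C was 1.31, 1.47 and 1.32 in the same order of stages. These are descriptions of summed levels and were not tested. Leaving out 1 library at a time gave ratios of 27 °C to 23 °C of 2.46 to 2.71 for heart, 2.87 to 3.31 for bent and 3.28 to 4.06 for mature seeds. Without bent replicate 3 at 23 °C the bent ratio was 2.87, and without heart replicate 1 at 23 °C the heart ratio was 2.62. The 79 loci below the filter gave the same order in heart and mature seeds, with means of 4.38 CPM at 27 °C and 1.96 at 23 °C in heart seeds, and 6.48 at 27 °C and 1.95 at 23 °C in mature seeds. In bent seeds these loci overlapped between 27 °C and 23 °C, since ATMG00030 took 184 counts in replicate 3 at 23 °C, and without that library they did not overlap and had a ratio of 3.25.

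**Figure D1:**
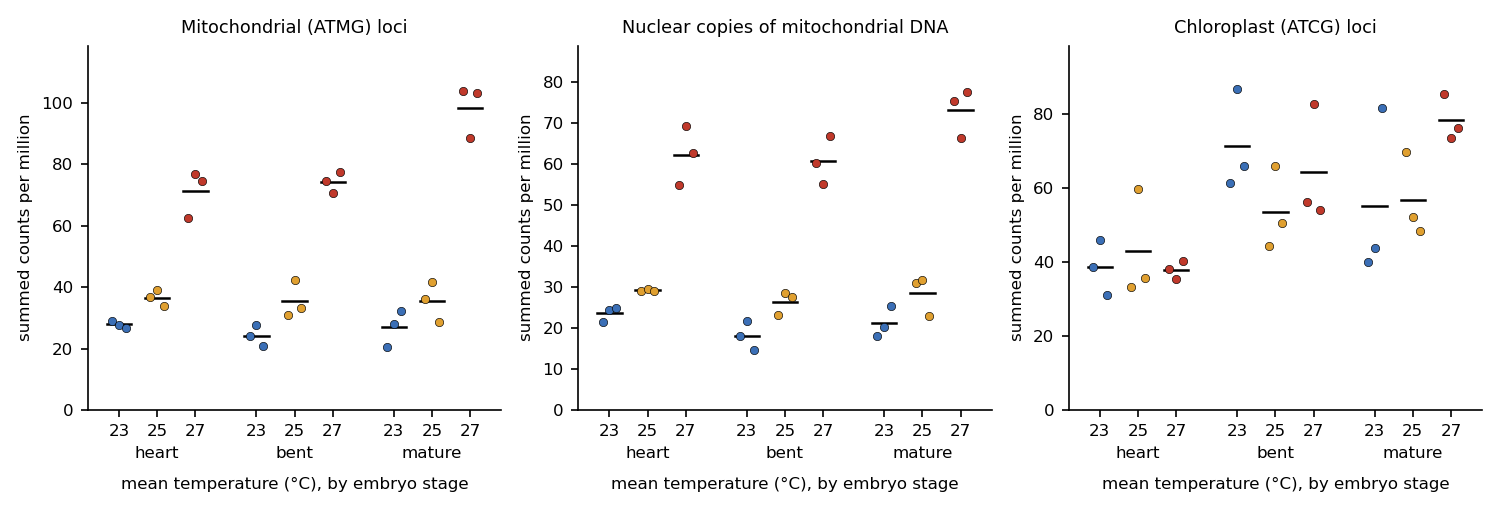
Summed CPM in each library (points) and the mean of the 3 libraries of a group (lines), by mean temperature and embryo stage, for the 114 mitochondrial loci, the 95 nuclear loci that match mitochondrial sequence and the 81 chloroplast loci. The 27 °C libraries sit between 62.7 and 103.8 for the mitochondrial loci, above all others, and the nuclear copies follow the same order, whereas the chloroplast libraries at 27 °C and 23 °C overlap in every stage.

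The chloroplast loci, the other organelle genome in the same libraries, showed this order only in part. Their summed level averaged 37.9 ± 2.5 CPM at 27 °C and 38.5 ± 7.5 at 23 °C in heart seeds (SD, n = 3 each). It averaged 64.4 ± 16.0 at 27 °C and 71.3 ± 13.6 at 23 °C in bent seeds, and 78.4 ± 6.3 at 27 °C and 55.1 ± 23.1 at 23 °C in mature seeds. At 25 °C it averaged 42.9 ± 14.6 for heart, 53.5 ± 11.1 for bent and 56.8 ± 11.3 for mature seeds, and only the mature libraries at 27 °C lay above all those at 25 °C of their stage. Of 33 chloroplast loci past the filter, 0 were called higher at 27 °C than at 23 °C for heart, 1 for bent and 4 for mature seeds. Of all loci tested, 12.6%, 15.9% and 14.7% were called higher in the same order of stages. In mature seeds 24 of the 33 had a positive difference and the median was 0.47. There 5 of the 33 were called higher at 27 °C than at 25 °C and 0 lower, against 14.2% and 17.8% of all loci.

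Single loci were then compared between 27 °C and 23 °C with the Wald test of DESeq2, with p-values adjusted over all 21445 loci tested. Of the 35 mitochondrial loci past the filter, 21 were called higher and 0 lower in heart seeds, where 12.6% of all loci tested were called higher and 11.5% lower. In bent seeds 28 were called higher and 0 lower, against 15.9% and 21.0% of all loci, and in mature seeds 31 were called higher and 0 lower, against 14.7% and 15.4% of all loci. The median log2 difference over the 35 loci was 1.48 for heart, 1.64 for bent and 1.88 for mature seeds, against -0.01, -0.02 and 0.00 over all loci. Among the 28 loci that passed the filter without the 27 °C libraries, 17 were called higher for heart, 24 for bent and 26 for mature seeds. Their median log2 differences were lower than those of the 35, at 1.23, 1.59 and 1.78 in the same order. The quasi-likelihood test of edgeR called 20, 27 and 30 of the 35 loci higher and 0 lower, and 24, 29 and 34 loci had an unadjusted p under 0.05 with DESeq2, all of them higher at 27 °C. Over all 21445 loci, 7343, 9733 and 8458 had such a p with DESeq2, in either direction. Without heart replicate 3 at 23 °C, or without heart replicate 3 at 27 °C, the count in heart seeds was 13. Without bent replicate 3 at 23 °C the count in bent seeds was 22, and without heart replicate 1 at 23 °C the count in heart seeds was 18. The 6 calls lost without bent replicate 3 were rpl16, rps3, nad7, ATMG01170, ATMG01200 and ATMG01370, and the median over the 35 loci was then 1.49. No difference of the 35 loci was negative without that library, and cox2 stood at 1.80, atp4 at 1.98, ATMG00590 at 2.59 and ATMG00990 at 3.85, all called. Without heart replicate 1, ATMG00660, ATMG01200, ATMG01320 and cox1 lost their calls in heart seeds and ATMG00730 gained one, and the median was 1.43.

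Calls were shared between stages: 20 loci were called higher at 27 °C in all 3 stages, 6 in bent and mature seeds, 5 in mature seeds alone, 2 in bent seeds alone and 1 in heart seeds alone. The remaining locus, ATMG00290 (rps4), was called in none. The counts by stage include the 7 loci that passed the filter only through the 27 °C libraries. For the mean of the 3 stage differences, 34 of 35 loci were called higher and 0 lower, where 23.8% of all loci were called higher and 25.5% lower. All 28 loci that passed the filter without the 27 °C libraries were among the 34. A call in one stage and not in another was not taken as a difference between stages, which was tested separately.

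**Figure D2:**
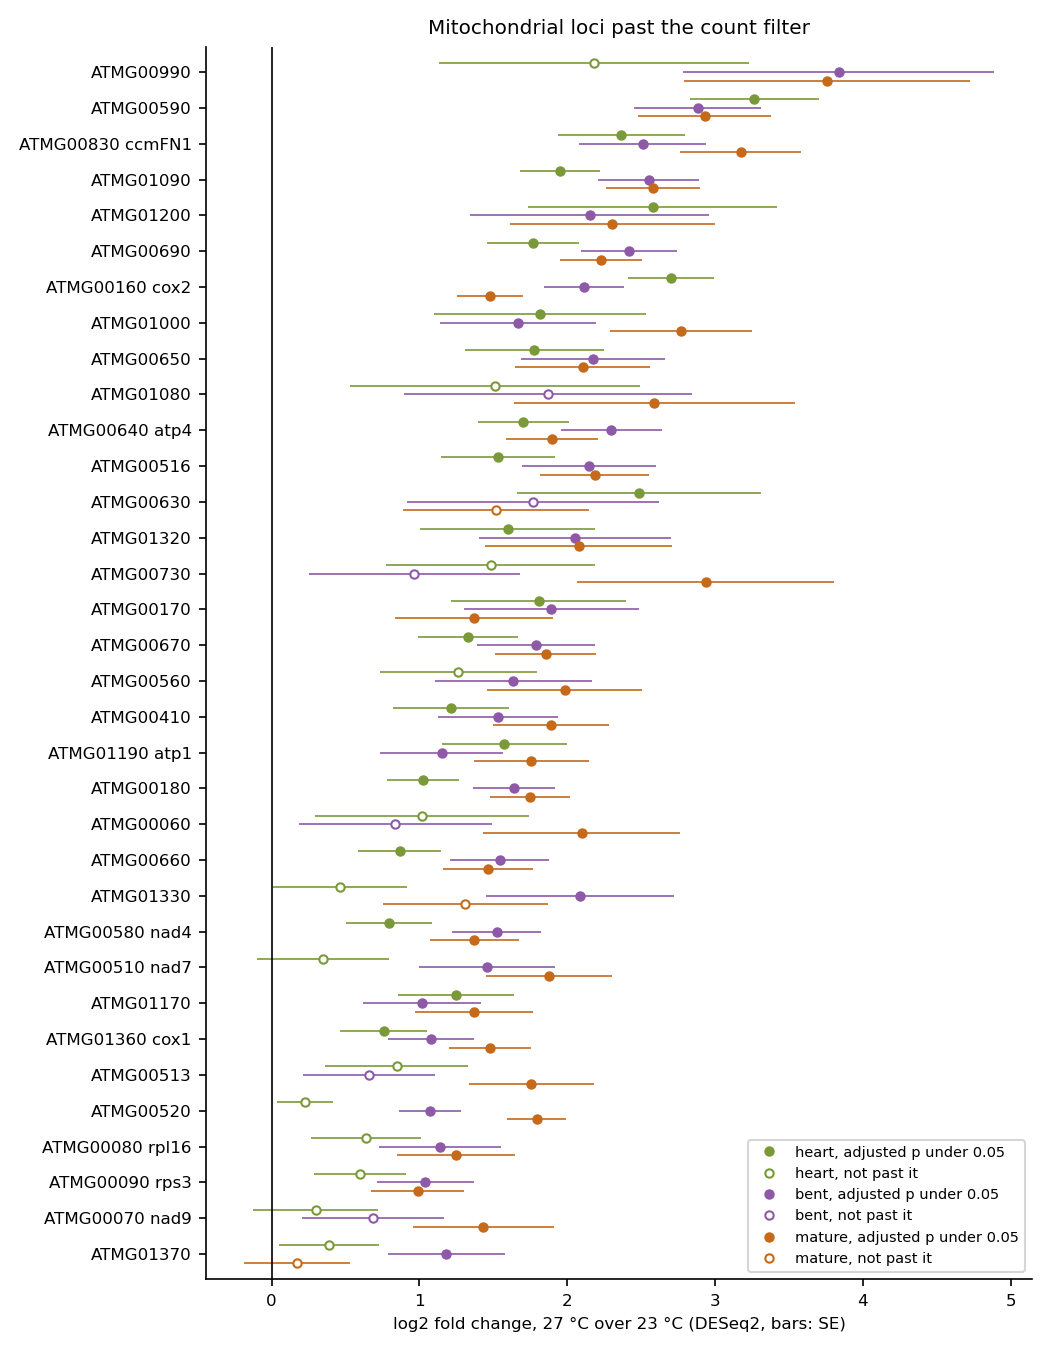
Log2 fold change of 27 °C over 23 °C in heart, bent and mature seeds for 34 of the 35 mitochondrial loci past the filter, sorted by the mean of the 3 stages, with standard errors as bars and filled points for an adjusted p under 0.05. All drawn values lie above 0, from 0.17 to 3.84, and ATMG00290 (rps4) is left out because its standard errors exceed 2.

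Among the ATP synthase subunits, atp4 (ATMG00640), a subunit of the stalk that holds the enzyme in the membrane, had the highest mean level per length of the 35 loci past the filter when all temperatures were pooled. At 27 °C it was first, whereas at 23 °C and at 25 °C ATMG01370 and ATMG00660 had higher levels per length. It averaged 3.97 CPM per kilobase of annotated length over the 27 libraries, and its group means ranged from 1.33 to 8.02. In heart seeds atp4 had 55.0, 78.7 and 73.7 normalised counts (counts divided by the size factor of the library) at 27 °C and 21.0, 19.7 and 23.0 at 23 °C. In bent seeds it had 68.0, 65.5 and 73.3 normalised counts at 27 °C and 21.4, 13.4 and 6.03 at 23 °C. In mature seeds it had 137, 81.9 and 85.6 normalised counts at 27 °C and 28.7, 24.3 and 28.5 at 23 °C. The groups did not overlap in any stage, and the log2 difference was 1.70 ± 0.31 (SE) for heart, 2.30 ± 0.34 for bent and 1.90 ± 0.31 for mature seeds, with adjusted p = 9.75e-07, 7.65e-10 and 3.30e-08.

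The gene atp1 (ATMG01190) encodes a subunit of the catalytic head of the same enzyme. It had 152, 119 and 131 normalised counts at 27 °C and 12.0, 52.3 and 54.6 at 23 °C in mature seeds, where replicate 1 at 23 °C lay far below the others. In heart seeds it had 43.1, 38.9 and 54.4 normalised counts at 27 °C and 11.9, 24.2 and 9.74 at 23 °C. The log2 difference was 1.57 ± 0.42 for heart, 1.15 ± 0.42 for bent and 1.76 ± 0.39 for mature seeds, and all 3 were called. Both loci named as ATPase subunit 6, the proton channel subunit, were also called higher in all stages. ATMG00410 rose by 1.21, 1.53 and 1.89 in log2 units at the heart, bent and mature stages, and ATMG01170 rose by 1.25, 1.01 and 1.37, the bent call being lost without replicate 3 at 23 °C. Reads of such similar loci may be divided uncertainly between them. The ring subunit locus ATMG01080 (F0-ATPase subunit 9) was called only in mature seeds, with 51.4, 38.5 and 83.3 normalised counts at 27 °C and 0, 13.4 and 15.4 at 23 °C. Its nuclear copy AT2G07671 held most of the counts, with 717 over the 3 heart libraries at 27 °C and 166 at 23 °C, 593 and 140 over the bent libraries, and 677 and 156 over the mature libraries. With the copy added, the difference was 2.01 for heart, 1.96 for bent and 2.20 for mature seeds, called in each. The copy has 776 exon bases and the locus 504 bases, so the copy can hold reads from sequence outside the locus.

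For complex IV, which passes electrons to oxygen, cox2 (ATMG00160) was among the loci with the largest differences. In heart seeds cox2 had 11.9, 13.4 and 10.6 normalised counts at 23 °C, 18.7, 24.9 and 21.7 at 25 °C and 71.5, 83.7 and 78.7 at 27 °C. In bent seeds it had 20.5, 23.0 and 7.24 at 23 °C, 30.1, 35.8 and 28.7 at 25 °C and 64.2, 73.0 and 89.7 at 27 °C. In mature seeds it had 41.9, 43.8 and 52.3 at 23 °C, 38.3, 45.0 and 28.4 at 25 °C and 149, 108 and 126 at 27 °C. The log2 difference between 27 °C and 23 °C was 2.70 ± 0.29 for heart, 2.11 ± 0.27 for bent and 1.47 ± 0.22 for mature seeds, with adjusted p = 4.38e-18, 7.10e-13 and 1.93e-09. The difference was larger in heart than in mature seeds: the interaction, as mature minus heart, was -1.23 ± 0.37 with adjusted p = 0.00925. The levels at 27 °C were 108 or more in mature seeds and 83.7 or less in heart seeds, whereas at 23 °C the mature libraries held 41.9 or more and the heart libraries 13.4 or less.

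The catalytic subunit gene of the same complex, cox1 (ATMG01360), rose by 0.76 ± 0.30 for heart, 1.08 ± 0.29 for bent and 1.48 ± 0.28 for mature seeds on the log2 scale. It had 86.6, 86.7 and 97.2 normalised counts at 27 °C and 20.3, 26.7 and 49.9 at 23 °C in mature seeds, without overlap. The locus noted as cytochrome c oxidase subunit 3 (ATMG00730) had few counts and was called only in mature seeds, with 12.5, 24.1 and 9.25 normalised counts at 27 °C and 4.78, 0 and 1.19 at 23 °C and a log2 difference of 2.94 ± 0.87. Leaving out 1 library gave 2.36 to 4.67, the lowest without mature replicate 2 at 23 °C and the highest without mature replicate 1 at 23 °C, and the locus passed the filter only through the 27 °C libraries. The complex III gene cob (ATMG00220), which encodes cytochrome b, was at 0 in 26 of 27 libraries and had 8 counts in heart replicate 2 at 25 °C. Counts stood at its nuclear copy instead.

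Complex I, the entry point for electrons from NADH, had 5 named loci past the filter, with 2 called higher for heart, 4 for bent and 5 for mature seeds. Over all loci, 12.6%, 15.9% and 14.7% were called higher in these stages. The 5 include ATMG01320, which passed the filter only through the 27 °C libraries. Any complex I subunits among the loci without a name here are not in these counts. The membrane subunit gene nad4 (ATMG00580) had 56.5, 60.9 and 70.4 normalised counts at 27 °C and 20.5, 31.6 and 12.1 at 23 °C in bent seeds. Its log2 difference was 0.79 ± 0.29 for heart, 1.52 ± 0.30 for bent and 1.37 ± 0.30 for mature seeds, and it was called in each. The locus noted as NADH dehydrogenase 3 (ATMG00990) showed the largest mean difference of the 35 loci when its nuclear copy was not counted. It had 51.8, 18.7 and 30.8 normalised counts at 27 °C and 4.65, 0 and 2.41 at 23 °C in bent seeds, and 75.3, 66.2 and 102 at 27 °C and 0, 8.51 and 9.50 at 23 °C in mature seeds. The log2 differences were 3.84 ± 1.05 and 3.76 ± 0.97, with adjusted p = 0.00152 and 0.000865, and counts at 23 °C were at or near 0. Leaving out 1 library gave 3.23 to 4.92 in bent seeds, the extremes without bent replicates 2 and 1 at 23 °C, and 3.17 to 4.26 in mature seeds, the extremes without mature replicates 1 and 3 at 23 °C. Its copy AT2G07751 had 0 counts at 27 °C in every stage and 5, 5 and 11 counts over the heart, bent and mature libraries at 23 °C. With the copy added the differences were 1.49 for heart, 3.06 for bent and 2.96 for mature seeds, and their mean was 2.50. The mean of ccmFN1 was 2.68 with no copy added, although 100% of its coding sequence matched chromosome 2. These means are therefore not ranked.

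The gene nad9 (ATMG00070) encodes a subunit of the arm of complex I outside the membrane. It had 11.0, 14.4 and 14.2 normalised counts at 27 °C and 9.15, 11.6 and 11.5 at 23 °C in heart seeds, which overlapped. It was called only in mature seeds, with 25.1, 19.3 and 17.4 normalised counts at 27 °C and 9.57, 6.08 and 7.13 at 23 °C and a log2 difference of 1.43 ± 0.47 (adjusted p = 0.0119). The gene nad7 (ATMG00510), of the same arm, was called in bent seeds at 1.46 (1.01 and not called without replicate 3 at 23 °C) and in mature seeds at 1.88, and stood at 0.35 ± 0.45 in heart seeds (adjusted p = 0.633).

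Of the 4 loci of cytochrome c maturation, 2 passed the filter and both were called higher at 27 °C in every stage. The gene ccmFN1 (ATMG00830), which acts in the attachment of haem, had 35.7, 37.2 and 24.3 normalised counts at 27 °C and 3.66, 7.16 and 7.97 at 23 °C in heart seeds. It had 102, 75.8 and 71.7 normalised counts at 27 °C and 9.57, 10.9 and 7.13 at 23 °C in mature seeds. Its log2 difference was 2.37 ± 0.43 for heart, 2.51 ± 0.43 for bent and 3.17 ± 0.41 for mature seeds, the last with adjusted p = 1.05e-12. The locus ATMG00180, noted as a cytochrome c biogenesis protein, was the only one called between 25 °C and 23 °C within a stage.

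With the groups as named here, the ribosomal protein genes had the lowest summed ratio of 27 °C to 23 °C of all groups in each stage. The summed level of the 5 loci at 27 °C was 1.66 times that at 23 °C in heart seeds, where the libraries overlapped, 2.19 times in bent and 2.42 times in mature seeds. Without bent replicate 3 at 23 °C the bent ratio was 1.71, and without heart replicate 1 at 23 °C the heart ratio was 1.82 with no overlap. The small subunit gene rps3 (ATMG00090) had 24.7, 39.8 and 38.5 normalised counts at 27 °C and 26.5, 18.8 and 23.0 at 23 °C in heart seeds, and 60.2, 60.2 and 44.0 at 27 °C and 32.3, 28.0 and 22.6 at 23 °C in mature seeds. It was called in bent seeds at 1.04 ± 0.33 and in mature seeds at 0.99 ± 0.31, and not in heart seeds at 0.60 ± 0.31. The bent call was lost, at 0.74, without replicate 3 at 23 °C. The large subunit gene rpl16 (ATMG00080) showed the same calls, the bent one again lost without that library, with 0.64, 1.14 and 1.25 in heart, bent and mature seeds. The gene rps4 (ATMG00290) swung between 0 and 18.8 normalised counts within groups, with 18.8, 0 and 16.2 at 27 °C and 0, 0 and 0 at 23 °C in mature seeds and 0 in all 3 bent libraries at 27 °C. No direction can be read for it. The length of ATMG00560, 1050 bases, matched both rpl2 (ribosomal protein L2) and an atp6 entry. ATMG00560 was counted with the loci similar to a named protein. In bent seeds the next lowest group ratio was 2.36, for the loci without a name. The order with ATMG00560 among the ribosomal proteins was not computed. No test of one functional group against another was made.

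**Figure D3:**
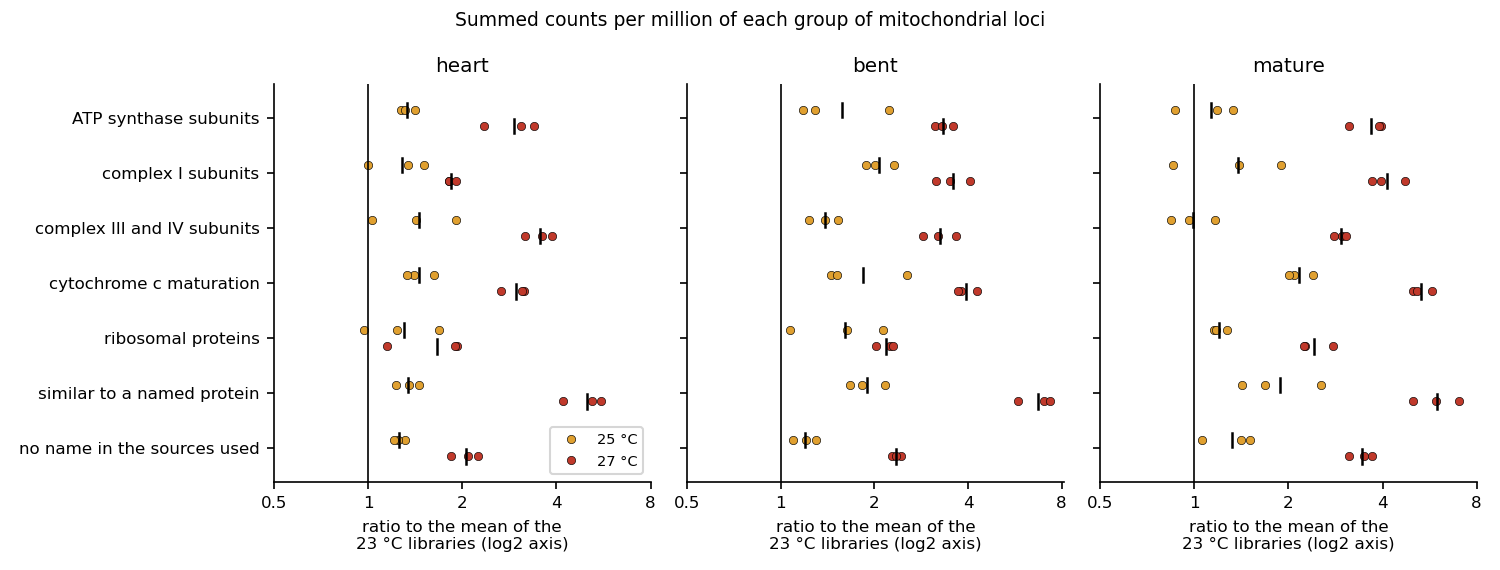
Ratio of the summed CPM of each group of mitochondrial loci in each library at 25 °C and 27 °C (points) to the mean of the 23 °C libraries of the same stage, on a log2 axis, with the mean of 3 libraries as a bar. At 27 °C the ratios of the group means range from 1.66 (ribosomal proteins in heart seeds) to 6.72 (loci similar to a named protein in bent seeds).

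The 8 loci noted as similar to a named protein held 3 past the filter, and their sum had the highest ratios of 27 °C to 23 °C, 4.99 for heart, 6.72 for bent and 5.99 for mature seeds. The bent ratio was 5.40 without bent replicate 3 at 23 °C. ATMG00590, similar to cytochrome b, had 68.7, 68.5 and 88.0 normalised counts at 27 °C and 12.8, 10.7 and 0 at 23 °C in heart seeds. Its log2 difference was 3.27 ± 0.44 for heart, 2.88 ± 0.43 for bent and 2.93 ± 0.45 for mature seeds (adjusted p = 7.07e-12, 8.46e-10 and 3.10e-09). ATMG01090, similar to subunit 9 of the ATP synthase, had 68.7, 114 and 77.1 normalised counts at 27 °C and 23.8, 20.6 and 23.0 at 23 °C in heart seeds, and 63.3, 53.4 and 73.3 at 27 °C and 10.2, 14.4 and 7.24 at 23 °C in bent seeds. Its log2 difference was 1.95 ± 0.27, 2.55 ± 0.34 and 2.58 ± 0.32 in heart, bent and mature seeds. Neither locus had overlapping groups in any stage.

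Of the 82 loci without a name here, 14 passed the filter, and 9 were called higher at 27 °C for heart, 11 for bent and 11 for mature seeds. Over all loci, 12.6%, 15.9% and 14.7% were called higher in these stages. The 14 include ATMG00630, ATMG00650 and ATMG01200, which passed the filter only through the 27 °C libraries. ATMG00520 had the highest mean normalised count of all mitochondrial loci, 69.7 over the 27 libraries. In heart seeds it had 58.5, 53.7 and 60.2 normalised counts at 23 °C, 67.1, 62.3 and 69.3 at 25 °C and 57.7, 75.3 and 68.7 at 27 °C, and the temperatures overlapped. In bent seeds it had 44.6, 42.2 and 19.3 at 23 °C, 46.1, 52.7 and 57.4 at 25 °C and 77.6, 82.4 and 68.4 at 27 °C. In mature seeds it had 35.9, 54.7 and 49.9 at 23 °C, 63.0, 66.4 and 60.4 at 25 °C and 179, 139.6 and 168 at 27 °C, and all 3 libraries at 27 °C lay above all 6 others. Its log2 difference between 27 °C and 23 °C was 0.23 ± 0.19 for heart (adjusted p = 0.421), 1.07 ± 0.21 for bent and 1.79 ± 0.20 for mature seeds. It differed between stages, by 1.56 ± 0.27 as mature minus heart (adjusted p = 6.54e-07) and by 0.84 ± 0.28 as bent minus heart (adjusted p = 0.0257). The second was 0.58 without bent replicate 3 at 23 °C. Its call was lost there, without heart replicate 3 at 23 °C, heart replicate 1 at 27 °C, bent replicate 1 at 27 °C or bent replicate 2 at 27 °C, and with edgeR (adjusted p = 0.055). Among all loci, 5.88% were called with a positive and 8.79% with a negative interaction for bent minus heart seeds, and 6.44% and 8.48% for mature minus heart seeds.

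ATMG00690 rose in every stage, with 149, 109.5 and 106 normalised counts at 27 °C and 21.5, 31.6 and 24.9 at 23 °C in mature seeds and log2 differences of 1.77, 2.42 and 2.23 in heart, bent and mature seeds. ATMG01200 was among the largest calls in heart seeds at 2.58 ± 0.84, from 9, 16 and 6 counts at 27 °C and 1, 4 and 0 counts at 23 °C. It was not called there without heart replicate 1 at 23 °C, heart replicate 3 at 23 °C or heart replicate 2 at 27 °C. ATMG01200 passed the filter only through the 27 °C libraries, which favours such a call. ATMG01370 overlapped between the temperatures in mature seeds alone, with 27.6, 15.6 and 24.3 normalised counts at 27 °C and 20.3, 18.2 and 21.4 at 23 °C there. Its log2 difference was 0.39 ± 0.34 in heart and 0.17 ± 0.36 in mature seeds, neither called, and 1.18 ± 0.40 in bent seeds, where it was called unless replicate 3 at 23 °C was left out.

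ATMG00670, another locus without a name here, was called higher at 27 °C in each stage, with 62.7, 45.7 and 52.1 normalised counts at 27 °C and 14.4, 13.4 and 16.6 at 23 °C in mature seeds and log2 differences of 1.33, 1.79 and 1.85 in heart, bent and mature seeds. ATMG00630 had 9.16, 5.07 and 10.9 normalised counts at 27 °C and 1.83, 1.79 and 0.885 at 23 °C in heart seeds, the only stage in which it was called. It passed the filter only through the 27 °C libraries, which favours such a call.

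**Figure D4:**
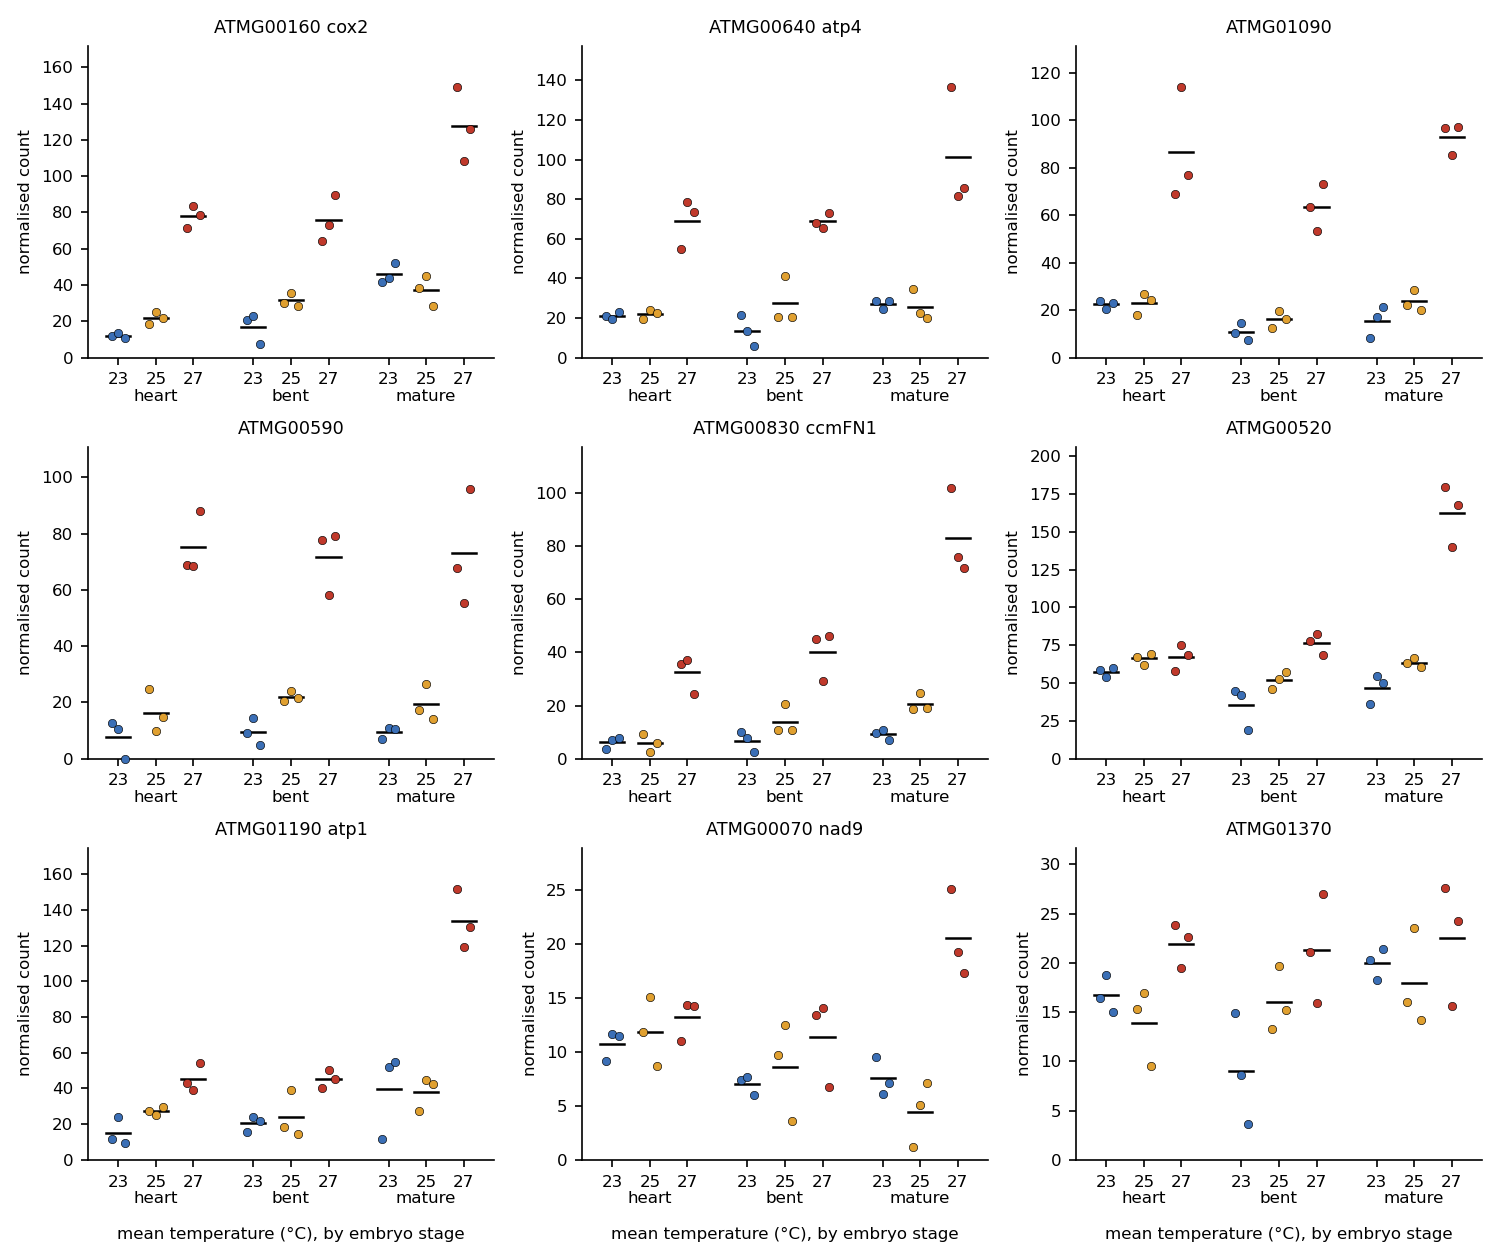
Normalised counts of 9 mitochondrial loci in each library (points) with the mean of 3 libraries (lines), by mean temperature and embryo stage. Values of cox2, atp4, ATMG01090, ATMG00590 and ccmFN1 at 27 °C lie above those at 23 °C in every stage, ATMG00520 and atp1 reach their highest values in mature seeds at 27 °C, nad9 at 27 °C and 23 °C overlaps in heart and bent seeds, and ATMG01370 in mature seeds.

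The comparison of 25 °C with 23 °C asked what mild stress changed. DESeq2 called 0 of 35 loci between 25 °C and 23 °C in heart seeds, where 0.275% of all loci were called higher and 0.546% lower. There 7 of the 35 loci, all higher at 25 °C, had an unadjusted p under 0.05, as had 1395 of all 21445 loci in either direction. In bent seeds DESeq2 called 0, with the adjusted p withheld for all 35 as low counts, and 9 loci had an unadjusted p under 0.05, all higher at 25 °C. There 0.121% of all 21445 loci were called higher and 2.94% lower, and 3743 had an unadjusted p under 0.05 in either direction. The adjusted p was withheld for 15803 of the 21445, so the called shares are larger among loci with an adjusted p. The quasi-likelihood test of edgeR also called 0 in both stages, with 5 loci in heart and 12 in bent seeds at an unadjusted p under 0.05. Over all 21445 loci, 1425 in heart and 3630 in bent seeds had such a p with edgeR. Without bent replicate 1 at 23 °C, 4 loci were called in bent seeds. In mature seeds 1 locus was called higher at 25 °C, where 0.807% of all loci were called higher and 0.797% lower.

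That locus was ATMG00180, with 21.5, 23.1 and 24.9 normalised counts at 23 °C, 45.7, 46.0 and 46.2 at 25 °C and 81.5, 74.6 and 77.5 at 27 °C in mature seeds. The 3 temperatures did not overlap, and the difference of 25 °C over 23 °C was 0.99 ± 0.28 (adjusted p = 0.0341). It was not called by edgeR, nor when any 1 of the 6 libraries was left out. For the mean of the 3 stages, 6 of the 35 loci were called higher at 25 °C than at 23 °C, where 2.72% of all loci were called higher and 4.74% lower. They were ATMG00990 at 2.00, ATMG00590 at 1.09, ATMG01000 at 1.06, ATMG00180 at 0.79, ATMG00660 at 0.56 and ATMG00520 at 0.39 on the log2 scale. Without bent replicate 3 at 23 °C, heart replicate 1 at 25 °C or bent replicate 3 at 25 °C, the count was 3.

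Between 27 °C and 25 °C, 11 of the 35 loci were called higher for heart, 17 for bent and 26 for mature seeds, and 0 lower, where 10.8%, 11.0% and 14.2% of all loci were called higher and 8.77%, 11.8% and 17.8% lower. Of the 28 loci that passed the filter without the 27 °C libraries, 10, 14 and 23 were called higher. Without bent replicate 1 at 27 °C the bent count was 10, and without bent replicate 1 at 25 °C it was 11. The group means increased at both steps, 23 °C to 25 °C and 25 °C to 27 °C, for 27 of the 35 loci for heart, 31 for bent and 27 for mature seeds. The 35 include the 7 loci that passed the filter only through the 27 °C libraries, which favours a rise to 27 °C. Such a count was not made for the 28 other loci or over all loci. All these comparisons between temperatures share libraries with those above and are not separate evidence.

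The embryo stages were compared at each temperature. Between bent and heart seeds at 23 °C, 0 loci were called higher and 3 lower, where 29.3% of all loci were called higher and 29.6% lower. The 3 were ATMG01330 at -1.74 ± 0.65, ATMG01090 at -1.06 ± 0.36 and ATMG00520 at -0.66 ± 0.22. None of them was called without bent replicate 3 at 23 °C, in which case cox2 alone was called, and higher in bent seeds. Between mature and bent seeds at 23 °C, 5 loci were called higher and 0 lower, where 23.4% of all loci were called higher. They were cox2 at 1.40 ± 0.29, ATMG00690 at 1.11 ± 0.36, ATMG01370 at 1.09 ± 0.41, atp1 at 0.95 ± 0.42, with overlapping libraries, and atp4 at 0.95 ± 0.37. Without bent replicate 3 at 23 °C cox2 alone kept its call.

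At 25 °C, 2 loci were higher in bent than in heart seeds, against 27.0% of all loci, and 3 in mature than in bent seeds, against 23.4% of all loci. Without bent replicate 2 at 25 °C these counts were 0 and 5. At 27 °C, 1 locus (ATMG01000) was higher in bent than in heart seeds, against 20.7% of all loci. At 27 °C, 13 of the 35 loci were higher in mature than in bent seeds and 0 lower, against 24.6% of all loci called higher. The largest of these was atp1 at 1.56 ± 0.38, with 152, 119 and 131 normalised counts in mature seeds and 40.3, 50.6 and 45.3 in bent seeds at 27 °C. ATMG01000 followed at 1.55 ± 0.37, with 35.1, 46.9 and 40.5 in mature and 17.3, 11.2 and 13.5 in bent seeds. Stage comparisons depended on scaling. With library totals in place of size factors, the median log2 difference over all loci between mature and bent seeds at 27 °C was -0.38, and 5 mitochondrial loci were called higher in mature seeds. Of the 35 loci, 1 had a difference between 27 °C and 23 °C that differed between bent and heart seeds, 0 between mature and bent seeds and 2 between mature and heart seeds, all named above. Over all loci, 2.22% were called positive and 3.28% negative for mature minus bent seeds. There 2 mitochondrial loci had an unadjusted p under 0.05, as had 3527 of all 21445 loci, and edgeR called 0 mitochondrial loci.

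Part of the mitochondrial sequence has a near-identical copy in the nucleus. In TAIR10.1, 72.6% of the RefSeq mitochondrial genome matched chromosome 2, with a median identity of 99.9%. Of the loci in the count table, 95 nuclear loci were covered by such matches over at least 90% of their exon bases, 94 of them on chromosome 2. The reads of a locus and its copy are divided between them by the estimate of the counting program, so the values of both are uncertain. The summed level of the 95 copies averaged 62.1 ± 7.2 CPM at 27 °C and 23.5 ± 1.8 at 23 °C in heart seeds (SD, n = 3 each). It averaged 60.7 ± 5.9 at 27 °C and 18.1 ± 3.5 at 23 °C in bent seeds, and 73.0 ± 6.0 at 27 °C and 21.2 ± 3.8 at 23 °C in mature seeds.

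For cob, the copy AT2G07727 had 116 counts over the 3 heart libraries at 27 °C and 54 at 23 °C, and 224 over the 3 mature libraries at 27 °C and 60 at 23 °C, while ATMG00220 had 0 in all 12 of these libraries. For atp1, the locus had 333 counts over the 3 mature libraries at 27 °C and 99 at 23 °C, and its copy AT2G07698 had 472 at 27 °C and 124 at 23 °C. For ATMG00590, the copy AT2G07718 held more counts than the locus in every group, with 823 over the 3 heart libraries at 27 °C and 282 at 23 °C, against 261 and 26 at the locus. These copies are longer than their loci. AT2G07718 has 5799 exon bases against 942 for ATMG00590. AT2G07727 has 3243 against 1182 for cob, and AT2G07698 has 2444 against 1524 for atp1. Their counts, and values with a copy added, can therefore hold reads from sequence outside the locus. When the counts of 38 copies that the reference ties to a locus were added to that locus, 48 loci passed the filter. Of these, 30 were called higher at 27 °C than at 23 °C for heart, 37 for bent and 41 for mature seeds, and 0 lower. In the fit without copies added, 12.6%, 15.9% and 14.7% of all loci were called higher in the same stages. How many of the 48 loci passed only through the 27 °C libraries was not counted. With its copy added, the difference of ATMG00590 was 1.76 in heart seeds, against 3.27 for the locus alone. That of ATMG00730 in mature seeds was 1.60, against 2.94 alone. This alternative was chosen after the data were seen. It added no copy to ccmFN1, nad4 or nad7, although 100% of each coding sequence matched chromosome 2.

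**Figure D5:**
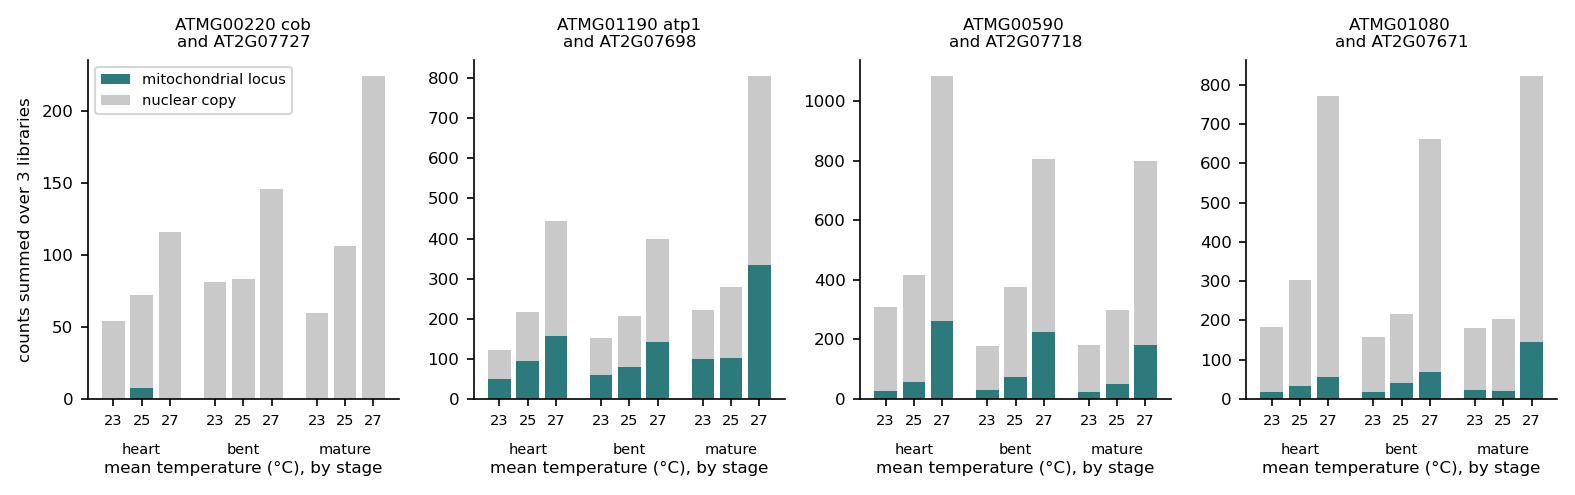
Counts summed over the 3 libraries of each group at 4 mitochondrial loci and, stacked on them, at the nuclear copy of each, by mean temperature and stage. The sum of locus and copy is highest at 27 °C in every stage, and nearly all counts of cob stand at its copy.

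The coding sequences of 6 named loci (nad9, rpl16, rps3, ccmB, atp4 and cox1) had no match on chromosome 2. Their summed level was 9.35, 12.6 and 12.1 CPM at 27 °C and 5.56, 5.04 and 5.70 at 23 °C in heart seeds. It was 10.7, 11.9 and 12.2 at 27 °C and 4.62, 5.62 and 2.16 at 23 °C in bent seeds, and 15.5, 13.3 and 13.4 at 27 °C and 4.72, 4.46 and 5.63 at 23 °C in mature seeds. The groups did not overlap, and the ratios of 27 °C to 23 °C were 2.09, 2.81 and 2.85. Without bent replicate 3 at 23 °C the bent ratio was 2.27, and the groups still did not overlap. Whether reads of these loci could still be shared with other nuclear sequence was not tested.

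Nuclear genes that serve the same organelle were counted for comparison. Of 63 nuclear genes described as respiratory chain or mitochondrial ATP synthase subunits (copies of mitochondrial DNA left out), 58 passed the filter. At 27 °C against 23 °C, 2 were called higher and 0 lower in heart, 6 higher and 12 lower in bent, and 6 higher and 2 lower in mature seeds, with medians of 0.00, -0.08 and 0.00 on the log2 scale. Of all loci tested, 12.6% were called higher and 11.5% lower in heart, 15.9% and 21.0% in bent, and 14.7% and 15.4% in mature seeds. The summed level of these nuclear genes was 3938 to 3992 CPM at 27 °C and 3630 to 3913 at 23 °C in heart seeds, 3297 to 3586 at 27 °C and 3316 to 3567 at 23 °C in bent seeds, and 2067 to 2342 at 27 °C and 2216 to 2318 at 23 °C in mature seeds.

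Of 14 nuclear genes for mitochondrial RNA polymerases and transcript processing, 1 was called higher at 27 °C for heart, 4 for bent and 4 for mature seeds, and 1 was lower in bent seeds. Of all loci tested, 12.6%, 15.9% and 14.7% were called higher in these stages, and 21.0% lower in bent seeds. AT5G15700, which encodes the RNA polymerase found in both mitochondria and chloroplasts, was called higher in all stages, at 0.30 for heart, 0.78 for bent and 0.47 for mature seeds. AT1G68990 (MGP3), the mitochondrial RNA polymerase, was called higher in bent seeds at 0.36 and in mature seeds at 0.37, and stood at 0.16 in heart seeds (adjusted p = 0.353). Of 6 genes of mitochondrial DNA maintenance, 0 were called in heart seeds, 1 higher in bent and 2 higher in mature seeds, against the same shares of all loci. They were AT3G20540 (POLGAMMA1), an organelle DNA polymerase, at 0.23 in bent and 0.27 in mature seeds, and AT1G71260 (ATWHY2) at 0.25 in mature seeds. In heart seeds these 6 genes ranged from -0.12 to 0.14 in DESeq2, and their adjusted p was 0.282 or more.

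Markers of other tissues also moved with temperature. All 5 pollen genes of a marker list were detected, and their summed level was 20.4 to 29.5 CPM at 27 °C and 75.3 to 188 at 23 °C in heart seeds, 7.36 to 15.5 at 27 °C and 43.6 to 67.1 at 23 °C in bent seeds, and 4.39 to 7.87 at 27 °C and 16.7 to 64.5 at 23 °C in mature seeds. All 5 were called lower at 27 °C in heart and bent seeds and 4 of 5 in mature seeds. The 4 seed coat genes summed to 1772 to 1932 CPM at 27 °C and 1585 to 1960 at 23 °C in heart seeds, with 1 called higher and 3 lower, to 1611 to 1756 at 27 °C and 1912 to 2480 at 23 °C in bent seeds, with 1 called lower, and to 728 to 737 at 27 °C and 900 to 1182 at 23 °C in mature seeds, with 0 called. The 3 endosperm genes summed to 56.3 to 59.8 at 27 °C and 40.5 to 53.3 at 23 °C in heart seeds, with 0 called, to 36.4 to 44.3 at 27 °C and 28.8 to 33.9 at 23 °C in bent seeds, with 0 called, and to 4.67 to 9.05 at 27 °C and 10.02 to 15.2 at 23 °C in mature seeds, with 1 called lower. The 3 embryo storage protein genes summed to 313 to 529 CPM at 27 °C and 21.2 to 3230 at 23 °C in heart seeds, with 1 called lower, to 4498 to 8742 at 27 °C and 2362 to 3117 at 23 °C in bent seeds, with 0 called, and to 69501 to 100529 at 27 °C and 70537 to 81041 at 23 °C in mature seeds, with 0 called. At 25 °C the storage protein genes summed to 0.270 to 1.73 CPM for heart, 828 to 1665 for bent and 40043 to 79296 for mature seeds. Against 23 °C, 2 of the 3 were called lower at 25 °C in heart seeds, 1 in bent and 0 in mature seeds, and against 25 °C, 2 were called higher at 27 °C in heart seeds, 2 in bent and 0 in mature seeds. The pollen genes summed at 25 °C to 24.4 to 113 CPM for heart, 13.3 to 16.2 for bent and 2.59 to 21.4 for mature seeds, with 0, 0 and 4 called lower than at 23 °C. Over all loci at 27 °C against 23 °C, 12.6%, 15.9% and 14.7% were called higher and 11.5%, 21.0% and 15.4% lower in heart, bent and mature seeds. At 25 °C against 23 °C, 0.546%, 2.94% and 0.797% were called lower. At 27 °C against 25 °C, 10.8%, 11.0% and 14.2% were called higher. The part of these tissues in the levels of mitochondrial loci was not tested.

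The shares of single loci in the mitochondrial counts are given as a description, without a test. Over all stages, ATMG00520 took 9.57% of the 4356 mitochondrial counts at 23 °C, 9.45% of 6041 at 25 °C and 6.70% of 13109 at 27 °C. The share of cox2 was 4.75% at 23 °C, 4.63% at 25 °C and 6.31% at 27 °C, and that of nad4 was 5.26%, 5.46% and 4.17% at the same temperatures. The 10 loci with the most counts held 49.4% of all mitochondrial counts. Per kilobase of annotated length and over all temperatures, atp4 at 3.97 CPM was followed by cox2 at 3.43, ATMG00660 at 3.33, ATMG01370 at 2.92, ATMG00990 at 2.90 and ATMG00690 at 2.85. The group means of each of these ranged over more than the gaps between them, from 0.92 to 7.53 for cox2 and from 1.42 to 5.19 for ATMG00660, so neighbours in this order were not distinguished.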

How the data were processed

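Whole seeds were collected in 27 libraries, and messenger-enriched RNA was sequenced with single-end reads. The deposited values are expected counts per transcript of the Araport11 annotation, which the authors estimated with Salmon 1.2. The expected counts were summed per locus and rounded. Library totals of 17227267 to 19445842 counts left 380 to 1891 for the mitochondrial loci, which limits precision at single loci. Loci reaching 10 counts in 3 or more libraries were tested in 1 fit of 9 groups with DESeq2 1.42.0 in R 4.3.3 (Wald test, two-sided, Benjamini-Hochberg adjustment over all loci tested, threshold 0.05). The alternative tests used edgeR 4.0.16. Nuclear copies were found with BLAST+ 2.17.0 in TAIR10.1 (identity of at least 95%, length of at least 300 bases, 90% of exon bases). Sequences were not printed. The scripts were tested on simulated data. The p-values set a difference against the spread between libraries within groups, estimated for each locus over all 9 groups. Plants of different temperatures stood in different growth chambers, so chamber and temperature cannot be told apart.

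Named loci were the 10 with the highest mean normalised count, up to 3 called loci with the largest difference and no overlap per comparison and direction, loci with a called interaction, and loci in a list of the study, of which ATMG01140 and ATMG01390 were not analysed here. Further loci were named to describe their functional group. Groups use only names that the sources give, so they are smaller than first planned. The members and lists were chosen with earlier results of these data known. Alternatives changed the filter, size factors, test, independent filtering, replicate block, libraries left out and treatment of nuclear copies.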

Additional observations from a re-analysis of the deposited data

Results flagged for a closer look

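The difference between 27 °C and 23 °C differed between embryo stages, by the interaction term of DESeq2, at ATMG00520 and at cox2 (ATMG00160). For ATMG00520 the interaction was 1.56 on the log2 scale as mature minus heart seeds and 0.84 as bent minus heart seeds. For cox2 it was -1.23 as mature minus heart seeds. Over all loci tested, 6.44% had a called positive and 8.48% a called negative interaction for mature minus heart seeds, and 5.88% a called positive one for bent minus heart seeds. Leaving out 1 library at a time gave 1.41 to 1.69 for ATMG00520 and -1.36 to -1.12 for cox2 as mature minus heart seeds, and neither of these 2 calls was lost. For ATMG00520 as bent minus heart seeds it gave 0.58 to 1.03, lowest without bent replicate 3 at 23 °C. That call was lost in 5 of 12 cases, with edgeR (adjusted p = 0.055) and with library totals as size factors (adjusted p = 0.0769 with DESeq2).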

How the results depend on the processing

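No call of a named locus changed direction under any alternative. When 50 counts were required in 3 or more libraries, 13 mitochondrial loci were tested. Those called between 27 °C and 23 °C numbered 11 for heart, 13 for bent, 13 for mature seeds and 13 for the mean of stages. Without the 27 °C libraries only ATMG00520 of the 13 passed this filter. The others passed only through the 27 °C libraries, which favours such calls, so these counts are no test of the filter. Of all 18894 loci tested then, 2555 were called higher at 27 °C than at 23 °C and 2283 lower in heart seeds. The counts were 3193 and 4212 in bent and 2990 and 3056 in mature seeds. Under the same filter 6 for heart, 11 for bent and 13 for mature seeds were called between 27 °C and 25 °C, 1 between bent and heart seeds at 25 °C, 0 between them at 27 °C, and 7 between mature and bent seeds at 27 °C. With library totals as size factors, 0 loci were called between 25 °C and 23 °C in mature seeds, 5 between bent and heart seeds at 23 °C, 1 at 25 °C and 0 at 27 °C, 1 between mature and bent seeds at 23 °C, 0 at 25 °C and 5 at 27 °C, and 0 for the interaction of bent and heart seeds. With edgeR 0 were called between 25 °C and 23 °C in mature seeds and 0 for the interaction of bent and heart seeds. With the nuclear copies added, an alternative chosen after seeing the data, 17 were called between 27 °C and 25 °C in heart seeds, 8 between bent and heart seeds at 23 °C, 3 at 27 °C, 5 between mature and bent seeds at 25 °C, 2 for the interaction of bent and heart seeds and 4 for that of mature and heart seeds. Adding all loci of the chromosome 2 insertion range lowered the summed ratio of 27 °C to 23 °C to 1.60 at the heart, 1.90 at the bent and 2.58 at the mature stage and that of 25 °C to 23 °C in heart seeds to 1.11. Of the counts in that range, 60.4% belonged to 6 loci with no match to mitochondrial sequence. Apart from these shifts, the cause of a change in calls was not tested.

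Leaving out 1 library at a time gave 13 to 20 calls between 27 °C and 23 °C in heart seeds, 0 to 4 between 25 °C and 23 °C in bent seeds, 10 to 14 between 27 °C and 25 °C in bent seeds, 0 to 0 between 25 °C and 23 °C in mature seeds and 3 to 8 for the mean of stages at 25 °C over 23 °C. It gave 1 to 5 between bent and heart seeds at 23 °C, 0 to 2 at 25 °C and 0 to 1 at 27 °C, and 1 to 6 between mature and bent seeds at 23 °C and 2 to 5 at 25 °C. It gave 0 to 1 for the interaction of bent and heart seeds and 0 to 1 for that of mature and bent seeds. The call between bent and heart seeds at 27 °C was lost without heart replicate 1 or 2 or bent replicate 1 or 3 at 27 °C. Between bent and heart seeds at 25 °C 1 was called without heart replicate 1, heart replicate 2 or bent replicate 1 at 25 °C, and at 23 °C 5 were called without bent replicate 1. Between mature and bent seeds at 23 °C 2 were called without mature replicate 3. The summed ratio of 27 °C to 23 °C was 2.87 to 3.31 in bent and 3.28 to 4.06 in mature seeds, the extremes without bent replicates 3 and 2 and mature replicates 1 and 3 at 23 °C.

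Replicate numbers are shared between groups, but same-numbered libraries did not deviate together (median correlation 0.00745, with 0 of 18 pairs of groups over 0.1 for every number). With the replicate number as a block, 20 loci were called higher at 27 °C than at 23 °C at the heart, 28 at the bent and 30 at the mature stage, and the counts of all other comparisons stayed within 1.5 times.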
